A study of Mus musculus with 17 samples.

Results

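The cold response described here is that of brown fat in mice lacking Nocturnin, the product of the gene Noct. It compares 4 Noct knockouts kept at 6 °C for 4 h with 4 Noct knockouts kept at 22 °C for 4 h, which are 8 of the 17 libraries of the series. The libraries were chosen by the genotype and temperature on their labels, and all genes of the count table were considered. All mice were littermates labelled C57BL/6. They stayed alone in their cages without food for those hours, and each library came from 1 animal. The labels give the knockout genotype as Noc-/- and name no tissue-specific driver, transgene or drug. The part of Noct that was removed and the hour of collection are not given in the sources used here. Both knockout groups held 1 female (replicate 1) and 3 males. Ages as labelled, without a unit, were 11.14, 20.43, 11.14 and 23.57 at 22 °C and 11.14, 11.14, 17 and 15 at 6 °C, while the series text speaks of young adults of 10 to 20 weeks. The remaining 9 libraries came from wild-type littermates, 4 at 22 °C and 5 at 6 °C, and serve here for comparison. Each wild-type group held 1 male (replicate 2), the others being females, so that the sexes were unequally spread over the genotypes, and the model has a term for sex. Their labelled ages were 23.57, 17, 11.14 and 11.14 at 22 °C and 11.14, 17, 11.14, 23 and 20.14 at 6 °C.

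Brown fat makes heat in the cold. Noradrenaline from sympathetic nerves acts on beta-adrenergic receptors of the brown adipocyte, cyclic AMP (cAMP) rises, protein kinase A drives lipolysis and transcription, and fatty acids feed the uncoupling protein UCP1 in mitochondria. Nocturnin is a rhythmically expressed phosphatase of NADP(H) that belongs by sequence to the family of mRNA deadenylases. The comparison asks which genes of this tissue respond to a few hours of cold when Nocturnin is missing.

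Levels below are CPM, a gene's counts relative to the library total after scaling by TMM, a method that equalises library composition. "Rose" and "fell" are used only for genes with an adjusted p below 0.05 in edgeR's quasi-likelihood test with Benjamini-Hochberg adjustment over all 12486 tested genes. Changes are log2 fold changes of 6 °C over 22 °C ± SE, and means are ± SD over the 4 animals of a group. The single values of a group are given in the order of replicates 1 to 4, which is a naming order only.

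Knockout libraries held 24823535 to 32929256 counts at 22 °C and 27261943 to 30797852 at 6 °C. Log2 CPM profiles correlated with r of 0.956 to 0.986 among the knockouts at 22 °C and 0.945 to 0.977 among those at 6 °C. Transcripts of the mitochondrial genome took 46.4 to 51.9% of the counts in 6 of the 8 knockout libraries, 57.3% in replicate 4 at 22 °C and 57% in replicate 3 at 6 °C. Markers of skeletal muscle, 16 genes, summed to 70.7 to 1093 CPM at 22 °C and 31.6 to 1350 CPM at 6 °C (1350 in replicate 3), and in replicate 2 at 6 °C 8 of the 16 were at 0. Keratins of epithelium and mesothelium summed to 8.21 CPM in replicate 1 at 22 °C and to at most 0.0387 CPM in the other knockouts. The labelled sex matched the Y-linked counts in all 17 libraries. Of the brown adipocyte markers, Ucp1, Cidea and Cox8b were abundant in every library.

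Noct itself was low in every knockout. It measured 9.71, 5.36, 34.2 and 3.37 CPM at 22 °C and 18.2, 27.2, 19.4 and 25.6 CPM at 6 °C. Replicate 3 at 22 °C lay above all cold knockouts and the other 3 lay below them, so the groups overlapped. The change did not pass (0.79 ± 0.47, adjusted p = 0.257). Without replicate 3 at 22 °C it was 1.9 (adjusted p = 0.0011). Wild types held 91.5 to 457 CPM.

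Cold moved 2697 of the 12486 tested genes in knockout brown fat, 21.6% of them. Of these, 1446 rose (11.6%) and 1251 fell (10%), a share of 53.6% rises. In bulk tissue fewer cells of a type and less RNA per cell cannot be told apart. The rises were mostly modest, with a median of 0.62, and the falls had a median of -0.79. More than 2-fold rises were called for 309 genes (2.47%) and more than 2-fold falls for 384 (3.08%), and 51 rises and 45 falls exceeded 4-fold. In 2037 called genes the 4 cold animals and the 4 others did not overlap at all, 75.5% of the called genes. Over all tested genes, 10.8% were without overlap and higher at 6 °C and 9.43% without overlap and lower. Without replicate 4 at 22 °C and replicate 3 at 6 °C, the libraries with the largest mitochondrial shares, 2282 genes were called, 2044 of them among the 2697. With 1 library left out at a time, 1543 of the calls (57.2%) held throughout, 906 rises and 637 falls. On log2(RPKM + 1) with limma the split was 975 rises and 1387 falls, 41.3% rises, against 53.6% here. In edgeR with scaling to total counts in place of TMM it was 1039 rises and 1327 falls, 43.9% rises. With the size factors of DESeq2, another scaling, the share of rises was 56.2%.

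Among called genes of at least 5 CPM in a knockout group and without overlap, Plk3 and Hmox1 had the largest rises. Plk3, a stress-activated Polo-like kinase, measured 2.33, 2.92, 4.13 and 0.874 CPM at 22 °C and 33.7, 18.5, 13.9 and 65.9 CPM at 6 °C. The lowest cold animal lay well above the highest of the others (3.69 ± 0.51, adjusted p = 0.000124). Hmox1, the haem oxygenase that breaks down haem, stood at 4.16, 4.65, 19.2 and 5.79 CPM at 22 °C and 50.0, 91.3, 133 and 156 CPM at 6 °C. The groups did not overlap, and replicate 3 was the highest animal at 22 °C, as it was for Noct (3.66 ± 0.61, adjusted p = 0.000521). Cldn1, a tight-junction protein, measured 7.67, 3.88, 6.04 and 6.54 CPM at 22 °C and 23.9, 74.9, 118 and 42.7 CPM at 6 °C (3.35 ± 0.42). Its groups did not overlap either, and replicate 3 was the highest of the cold animals. Lrrc52, an auxiliary subunit of potassium channels, rose by 2.95 ± 0.45.

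By the same limits, the largest falls were of Aplnr, Klhdc7a, Lep and Kbtbd11, in that order. Aplnr, the receptor for apelin, measured 11.1, 3.82, 6.34 and 7.12 CPM at 22 °C and 0.267, 0.58, 0.819 and 0.624 CPM at 6 °C, so that all 4 cold animals held under 1 CPM and none of the others did (-3.64 ± 0.54, adjusted p = 0.000226). Klhdc7a, a Kelch-domain gene, stood at 198, 140.3, 188 and 139.7 CPM at 22 °C and 39.4, 17.8, 12.2 and 23.7 CPM at 6 °C (-2.90 ± 0.41, adjusted p = 0.000158). Every cold animal was below 40 CPM and every other animal above 139 CPM. Kbtbd11, another Kelch-domain gene, measured 31.3, 32.8, 34.3 and 31.3 CPM at 22 °C and 8.32, 3.4, 3.06 and 6.73 CPM at 6 °C (-2.61 ± 0.29), with a tight group at 22 °C and replicates 2 and 3 lowest in the cold. Rasl12, a small GTPase, fell by 2.50 ± 0.31 and Tnfsf10, the death ligand TRAIL, by 2.40 ± 0.34. The leptin gene Lep fell too (-2.73 ± 0.86, adjusted p = 0.0306), yet its groups nearly met at 2.56 and 2.47 CPM in the females of the 2 groups, and the call was lost without replicate 2 or 4 at 22 °C or without replicate 2, 3 or 4 at 6 °C.

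**Figure D1:**
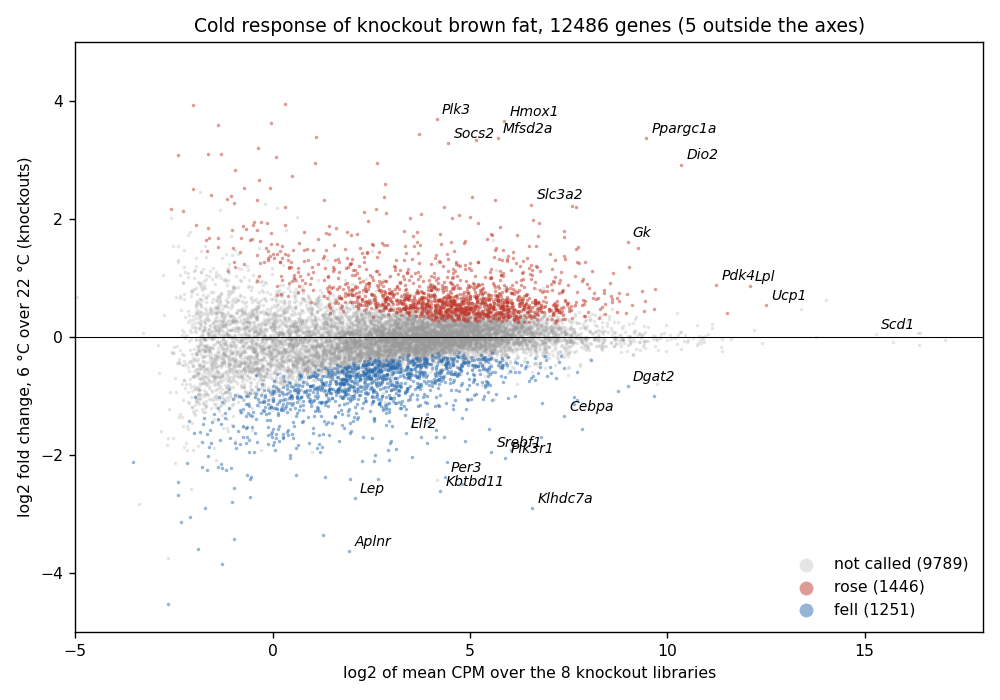
Cold response of knockout brown fat over 12486 genes, with the log2 of the mean CPM over the 8 knockout libraries on the horizontal axis and the log2 fold change of 6 °C over 22 °C on the vertical axis. Red points (1446) rose, blue points (1251) fell and grey points were not called; 5 genes lie outside the axes. Dio2 and Ppargc1a lie high and toward the right, and Scd1, farther right, lies near 0.

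Of 24 tested genes for adrenergic receptors and cAMP production, which receive the sympathetic signal, 4 rose and 3 fell (median -0.03). These shares lie near the 11.6% and 10% of all tested genes, and 3 rises and 1 fall held whichever library was left out. Without replicate 2 at 22 °C only 1 fall remained. Adcy3, an adenylyl cyclase of adipocytes, measured 157, 117, 132 and 113 CPM at 22 °C and 268, 342, 308 and 306 CPM at 6 °C. Its groups were far apart and tight (1.25 ± 0.15, adjusted p = 6.1e-05). Adcy4 rose by 0.80 ± 0.18, while Adcy9, another cyclase, fell by 0.90 ± 0.21 with groups that overlapped. Adrb3, the main adrenergic receptor of mouse adipocytes, measured 90.0, 108, 74 and 57.6 CPM at 22 °C and 82.8, 66.4, 63.1 and 103 CPM at 6 °C (-0.06 ± 0.23, adjusted p = 0.891). The cold values lay within the range at 22 °C.

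Most calls among the genes that limit cAMP signalling were rises. Of 21 tested phosphodiesterases, repressors and salt-inducible kinases, 7 rose and 1 fell (median 0.39), against 11.6% and 10% over all tested genes. In the list, 5 of the rises held whichever library was left out. The fall was lost without replicate 2 or 3 at 22 °C, and 2 falls were called without replicate 4 of either temperature. Pde4d, a phosphodiesterase that degrades cAMP, measured 102, 129, 113 and 90.8 CPM at 22 °C and 265, 367, 288 and 298 CPM at 6 °C. The 2 sets of values were separated by a factor that exceeded the spread in either group (1.49 ± 0.15, adjusted p = 1.89e-05). Pde7b stood at 34.4, 33.2, 36.3 and 41.4 CPM at 22 °C and 56.6, 104, 122 and 115 CPM at 6 °C, with replicate 1 the lowest cold animal (1.44 ± 0.21, adjusted p = 0.000218). Crem, which encodes cAMP-responsive repressors, rose by 1.03 ± 0.20 and was likewise lowest in replicate 1 of the cold animals. Pde3b, the phosphodiesterase through which insulin restrains lipolysis, went from 346 ± 43.8 CPM at 22 °C to 532 ± 85.2 CPM at 6 °C (0.61 ± 0.13).

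Of 24 tested immediate-early factors, which are transcription factors switched on quickly by signals, 10 rose and 2 fell (median 0.34), and 9 of the rises held whichever library was left out. Atf3, a stress-induced factor of the cAMP-responsive family, measured 1.55, 2.6, 3.4 and 1.33 CPM at 22 °C and 18.2, 11.8, 22.3 and 43.1 CPM at 6 °C. Each cold animal was above each other animal, with replicate 4 highest (3.44 ± 0.57, adjusted p = 0.000482). Nr4a3, an orphan nuclear receptor, stood at 14.8, 16.6, 7.22 and 3.58 CPM at 22 °C and 26.1, 55.8, 89.3 and 50.8 CPM at 6 °C without overlap (2.38 ± 0.46, adjusted p = 0.00158). Jun rose by 1.01 ± 0.18, and Klf10 fell by 1.37 ± 0.19. The other fall was lost without any of 10 single libraries, and 4 falls were called without replicate 4 at 22 °C. The classical early genes Fos and Egr1 were not called. Fos measured 13.1, 0.481, 0.344 and 0.375 CPM at 22 °C and 0.301, 0.271, 0.69 and 0.427 CPM at 6 °C, and Egr1 105, 10.4, 11 and 1.71 CPM at 22 °C and 2.87, 9.01, 2.46 and 1.08 CPM at 6 °C. In both, replicate 1 at 22 °C stood far above all other knockouts. That library is also the one with the keratin signal, and the part of this in the Fos and Egr1 values was not tested.

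Maff, a small Maf factor that partners with cap'n'collar and AP-1 factors, measured 1.98, 1.8, 2.98 and 2.58 CPM at 22 °C and 17.4, 13.3, 8.19 and 8.63 CPM at 6 °C (2.38 ± 0.36, adjusted p = 0.000269). All 4 cold animals exceeded all 4 others. Its promoter is shown because Maff alone held a full cAMP response element in the window searched, among risen cAMP feedback and immediate-early genes with a promoter in the table. Of the 7 risen cAMP feedback genes only 4 had one. The window covers the 250 bases before the annotated start (RefSeq, GRCm38.p6, plus strand, chr15:79347270-79347519), and capitals mark the element TGACGTCA, which begins 29 bases before the start.
Maff: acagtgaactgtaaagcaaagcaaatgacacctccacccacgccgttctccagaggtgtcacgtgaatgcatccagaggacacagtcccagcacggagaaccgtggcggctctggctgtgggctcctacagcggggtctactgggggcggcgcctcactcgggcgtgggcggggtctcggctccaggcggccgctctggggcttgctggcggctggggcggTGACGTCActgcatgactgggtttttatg
This element, which reads the same on both strands, was found in none of the 12 cAMP feedback genes with a promoter in the table. It occurred in 2 of the 19 immediate-early genes with one, Maff and Btg2, against 2.98% of the tested genes with a promoter in the table (1.55% of all 32851 promoters). A match is a description of the letters only.

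Among genes of heat production, 8 of 28 rose and none fell (median 0.21), against 11.6% and 10% over all tested genes. In the list, 7 rises held whichever library was left out. Ppargc1a, the coactivator of mitochondrial and thermogenic genes, measured 101, 90.3, 154 and 140.0 CPM at 22 °C and 862, 1139, 1546 and 1619 CPM at 6 °C. The lowest cold animal, the female replicate 1, still lay more than 5-fold over the highest of the others (3.37 ± 0.35, adjusted p = 1.89e-05). Dio2, which converts thyroxine to active thyroid hormone within the tissue, measured 287, 308, 310.2 and 292 CPM at 22 °C and 1535, 2399, 3391 and 1971 CPM at 6 °C (2.92 ± 0.24, adjusted p = 1.81e-06). The 4 animals at 22 °C were nearly equal, and the 4 cold animals spread widely. Kcnk3, a potassium channel of brown adipocytes, stood at 323, 332, 331 and 277 CPM at 22 °C and 583, 627, 811 and 857 CPM at 6 °C without overlap (1.18 ± 0.12, adjusted p = 1.89e-05).

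Ucp1, the uncoupling protein itself, also rose. It measured 4084, 4390.2, 4294 and 6094 CPM at 22 °C and 5995, 7635, 7141 and 6744 CPM at 6 °C. Replicate 4 at 22 °C lay above replicate 1 at 6 °C, so the groups overlapped, and the other 3 animals at 22 °C lay below all cold animals (0.54 ± 0.14, adjusted p = 0.0119). In the 6 males alone the call was lost (adjusted p = 0.111). Gk, glycerol kinase, which returns glycerol to triglyceride, measured 220.4, 207, 217 and 349.6 CPM at 22 °C and 524, 902, 1066 and 592 CPM at 6 °C (1.61 ± 0.25, adjusted p = 0.000304), with no overlap. Atp2a2, the calcium pump of the endoplasmic reticulum, went from 174 ± 18.7 CPM at 22 °C to 328 ± 65.3 CPM at 6 °C (0.91 ± 0.15). Cidea, a lipid droplet protein typical of brown fat, was at 1060.3 ± 136 CPM at 22 °C and 1083 ± 260.4 CPM at 6 °C (0.03 ± 0.14, adjusted p = 0.919).

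**Figure D2:**
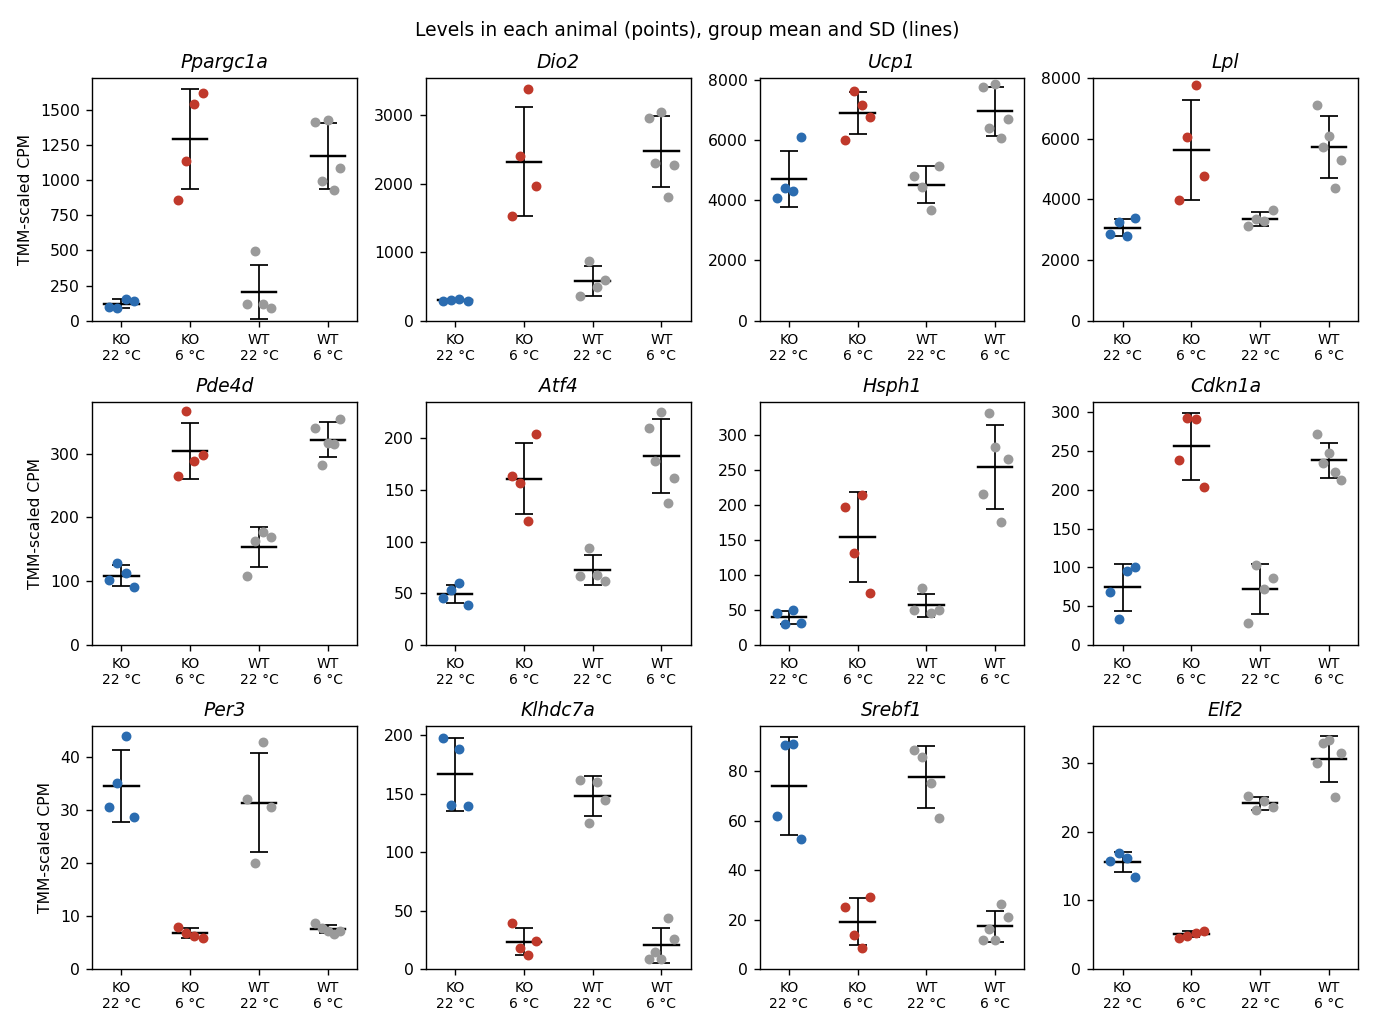
TMM-scaled CPM of 12 genes in each animal, with knockouts at 22 °C in blue, knockouts at 6 °C in red and wild types of both temperatures in grey (n = 4, 4, 4 and 5); horizontal lines are group means and bars are SD. Knockout groups overlap in Ucp1 alone among the 12 genes, and Elf2 is lower in the cold knockouts (4.58 to 5.55 CPM) than in any other animal.

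Transcription factors of the brown adipocyte were called in both directions. Among 31, 8 fell and 5 rose (median 0.05), against 10% and 11.6% over all tested genes. Of the calls in the list, 6 falls and 3 rises held whichever library was left out, and 3 rises were called without replicate 2 at 22 °C. Without both replicate 4 at 22 °C and replicate 3 at 6 °C 2 rises and 7 falls were called. Cebpa, a factor of adipocyte differentiation and lipid synthesis, measured 265, 272, 246 and 174 CPM at 22 °C and 93.8, 52.7, 61.4 and 169 CPM at 6 °C. Replicates 1 to 3 in the cold were far below, but replicate 4 in the cold nearly reached replicate 4 at 22 °C (-1.34 ± 0.30, adjusted p = 0.00419). Ebf2 and Zic1, both used as markers of brown adipocytes, fell by 0.97 ± 0.16 and 0.92 ± 0.16 without overlap. Zfp516, a zinc-finger factor of brown fat, rose by 1.08 ± 0.17 and Med1, a Mediator subunit, by 0.74 ± 0.12. Lhx8, a LIM homeobox gene, fell by 1.44 ± 0.32 from a low level of 2.08 ± 0.845 CPM at 22 °C. Pparg, the central factor of adipocytes, was at 219 ± 37 CPM at 22 °C and 217 ± 11.8 CPM at 6 °C (-0.01 ± 0.13, adjusted p = 0.961).

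Some genes of lipid uptake, the lipid droplet and esterification rose, while most of each list was not called. Over all tested genes 11.6% rose and 10% fell, so most of those were not called either. In lipid uptake 4 of 22 rose and 1 fell (median 0.11), in lipolysis and the lipid droplet 4 of 21 rose and 1 fell (median -0.07), and in triglyceride synthesis 5 of 20 rose and 1 fell (median 0.04). The calls that held whichever library was left out were 3 rises and 1 fall, 3 rises and 1 fall, and 5 rises and 1 fall. Without replicate 4 at 6 °C 2 falls were called in lipid uptake. Lpl, lipoprotein lipase, which frees fatty acids from circulating lipoproteins, measured 2862, 3250.2, 2788 and 3375 CPM at 22 °C and 3973, 6046, 7761 and 4784 CPM at 6 °C. It was high in every animal, and the cold group did not overlap the other (0.87 ± 0.17, adjusted p = 0.00174). Mfsd2a, a transporter of lysophosphatidylcholine, measured 5.57, 5.64, 19.6 and 6.83 CPM at 22 °C and 94.1, 129, 74.8 and 80.1 CPM at 6 °C (3.37 ± 0.54, adjusted p = 0.00039). Replicate 3 stood highest at 22 °C, as for Noct and Hmox1, and every cold animal was still several-fold above it.

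Gpihbp1, which carries lipoprotein lipase to the capillary lumen, rose by 0.59 ± 0.13. Plin2, a lipid droplet coat protein, rose by 0.77 ± 0.18, as did Abhd5, the activator of adipose triglyceride lipase (0.68 ± 0.15). The lipases themselves were not called. Pnpla2, adipose triglyceride lipase, measured 1830.5, 2003, 2189.8 and 1464 CPM at 22 °C and 1833, 1698, 1308 and 2608 CPM at 6 °C (-0.01 ± 0.18, adjusted p = 0.984). Lipe, hormone-sensitive lipase, stood at 615 ± 132 CPM at 22 °C and 506 ± 244 CPM at 6 °C (-0.28 ± 0.26, adjusted p = 0.487). Replicate 4 was the highest and replicate 3 the lowest of the cold animals in both.

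Dgat2, which completes triglyceride synthesis from newly made fatty acids, measured 436, 872, 792 and 525 CPM at 22 °C and 354, 428, 269.6 and 403 CPM at 6 °C (-0.83 ± 0.20, adjusted p = 0.00597). The groups just failed to meet. Gpam and Gpat3, acyltransferases of the first step of glycerolipid synthesis, rose by 0.74 ± 0.13 and 0.69 ± 0.18, and Gpat3 had overlapping groups. In fatty acid synthesis 4 of 26 rose and 3 fell (median -0.02), shares near the 11.6% and 10% of all tested genes. Of these calls, 1 rise and all 3 falls held whichever library was left out. Only 2 rises were called without replicate 1, 2, 3 or 4 at 22 °C or replicate 4 at 6 °C, 1 without replicate 1 at 6 °C, and 5 falls without replicate 4 at 6 °C. Srebf1, the master regulator of lipogenic genes, measured 62, 90.9, 91.2 and 52.5 CPM at 22 °C and 25.2, 13.8, 8.54 and 29 CPM at 6 °C, with every cold animal under every other (-1.96 ± 0.33, adjusted p = 0.000624). Mid1ip1, an activator of acetyl-CoA carboxylase, and Pnpla3 fell with it, by 1.51 ± 0.19 and 1.02 ± 0.24. Scd1 and Fasn, enzymes that make and desaturate fatty acids, were not called (0.05 ± 0.28 and -0.01 ± 0.28). Sterol synthesis gave 2 rises among 25 genes (median -0.12), and 1 of the rises was lost without replicate 1, 2 or 3 at 22 °C or replicate 1 or 3 at 6 °C. No fall was called with all libraries, and 0 to 2 were as single libraries were left out, 2 of them without replicate 1 at 6 °C.

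Of 45 tested genes of glucose uptake, glycolysis and glycogen 5 rose and 4 fell (median 0.05), shares close to those of all tested genes, and 4 rises and 2 falls held whichever library was left out; without replicate 3 at 22 °C 2 falls were called. Ugp2, which makes the UDP-glucose for glycogen, measured 201, 241, 222 and 341 CPM at 22 °C and 474, 551, 562 and 537 CPM at 6 °C (1.09 ± 0.18, adjusted p = 0.000429), with no overlap. Ppp1r3b, the subunit that brings a phosphatase to glycogen, measured 256, 232, 247 and 396 CPM at 22 °C and 172, 137, 117 and 109 CPM at 6 °C (-1.08 ± 0.21, adjusted p = 0.00158). Every cold animal was above every other animal in Ugp2 and below it in Ppp1r3b. Pfkp, the platelet-type phosphofructokinase, and the transporter Slc2a1 rose by 0.92 ± 0.22 and 1.04 ± 0.23. Slc2a4, the insulin-responsive transporter, was at 253 ± 16.2 CPM at 22 °C and 271 ± 66.5 CPM at 6 °C (0.08 ± 0.15, adjusted p = 0.762).

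Mitochondrial energy genes were mostly not called after 4 h. Most tested genes were not called either, but each list of this paragraph had a share under the 21.6% called over all tested genes. Of 35 genes of fatty acid oxidation and ketogenesis 1 rose and 1 fell (median -0.05), of 24 genes of the tricarboxylic acid cycle none was called (median -0.05), and of 81 nuclear subunits of the respiratory chain 1 rose and 1 fell (median -0.06). Among 77 mitochondrial ribosomal proteins none rose and 5 fell (median -0.07), of which 2 held whichever library was left out, and 3 falls were called without replicate 2, 3 or 4 at 22 °C or replicate 1 at 6 °C. As single libraries were left out, the falls numbered 0 to 2 in oxidation, 0 or 1 in the cycle and 0 or 1 in the respiratory chain, and 1 rise was called among the mitochondrial ribosomal proteins without replicate 4 at 6 °C. The rise in the oxidation list was of Pdk4, the kinase that closes pyruvate dehydrogenase. Pdk4 measured 2092, 1874, 1605 and 1228 CPM at 22 °C and 3331, 2945, 2463 and 3835 CPM at 6 °C (0.88 ± 0.19, adjusted p = 0.00301), with no overlap. Coq8a, needed for ubiquinone synthesis, measured 629.6, 585, 607 and 436 CPM at 22 °C and 355, 265, 143 and 434 CPM at 6 °C (-0.92 ± 0.25, adjusted p = 0.0141); replicate 4 of each group almost coincided. Of 9 tested transcripts of the mitochondrial genome 1 was called, the light-strand gene mt_Nd6, which fell (-1.0 ± 0.29, adjusted p = 0.0213) but not without replicate 1 or 2 at 22 °C or replicate 3 or 4 at 6 °C. The strand setting of the counting is not given, so reads of mt_Nd6 and of the opposite strand cannot be told apart. Of 84 cytosolic ribosomal proteins 1 rose (median 0.04), and 0 to 2 did as single libraries were left out.

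Protein-folding genes gave the largest share of rises of the lists described here. Of 32 heat-shock chaperones and their regulators 20 rose and none fell (median 0.69), and the count ran from 17 to 22 as libraries were left out, with 17 rises held throughout. Without replicate 4 at 22 °C and replicate 3 at 6 °C 18 rose. Hspa8, the constitutive Hsp70, measured 291, 274, 340.1 and 355 CPM at 22 °C and 771, 893, 1261 and 680.3 CPM at 6 °C, with no overlap (1.51 ± 0.20, adjusted p = 0.000109). Hsph1, a nucleotide exchange factor of the Hsp70s, stood at 45.9, 29.9, 49.4 and 31.7 CPM at 22 °C and 197, 132, 215 and 74.7 CPM at 6 °C (1.98 ± 0.30, adjusted p = 0.00023). Replicate 4 had by far the smallest response and replicate 3 the largest. Hsp90aa1, the inducible Hsp90, showed the same order with 104, 89, 130.0 and 122 CPM at 22 °C and 309.9, 306, 490.2 and 168 CPM at 6 °C (1.52 ± 0.27, adjusted p = 0.00084). Bag3, a cochaperone, was more even, at 26.7, 35.2, 33.4 and 25.2 CPM at 22 °C and 78, 78.7, 98.4 and 79.9 CPM at 6 °C (1.48 ± 0.14, adjusted p = 8.91e-06). The inducible Hsp70 genes Hspa1a and Hspa1b rose by 3.06 ± 0.62 and 2.72 ± 0.70 from under 0.5 CPM in every animal at 22 °C. They are near-identical copies whose reads the counting may have split or dropped. Hsf1, the heat-shock transcription factor, was at 8.45 ± 1.48 CPM at 22 °C and 8.31 ± 2.44 CPM at 6 °C (-0.03 ± 0.19, adjusted p = 0.945). A heat-shock element, searched on both strands as 3 alternating GAA and TTC triplets spaced 2 bases apart, was found in none of the 16 risen genes with a promoter in the table, in 2 of all 25 list genes with one (Hspd1 and Hspe1) and in 0.465% of the tested genes with one (0.466% of all promoters).

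Of 35 tested genes of the ATF4 programme, the response to amino acid shortage and translational stress, 15 rose and none fell (median 0.60), and 11 of the rises held whichever library was left out. Without replicate 3 at 22 °C 1 fall was called. Atf4, its transcription factor, measured 45, 52.9, 59.4 and 39.1 CPM at 22 °C and 163, 157, 119.8 and 204 CPM at 6 °C. Each cold animal lay at over 119 CPM and none of the others above 60 CPM (1.72 ± 0.19, adjusted p = 2.18e-05). Slc3a2, the heavy chain of amino acid exchangers, measured 30.0, 43.2, 38.8 and 18.7 CPM at 22 °C and 155, 139.8, 109 and 215 CPM at 6 °C (2.25 ± 0.25, adjusted p = 2.24e-05), and Slc7a1, a transporter of cationic amino acids, 1.75, 2.79, 2.71 and 0.916 CPM at 22 °C and 11, 8.62, 9.14 and 20.6 CPM at 6 °C (2.59 ± 0.46, adjusted p = 0.000897). In both, the highest cold animal was replicate 4 and the lowest animal at 22 °C was also a replicate 4. Ppp1r15a, which restores translation, rose by 1.43 ± 0.22 and Sesn2, an amino acid sensor, by 1.41 ± 0.28. The asparagine synthetase gene Asns, a classical target, was at 53.4 ± 1.87 CPM at 22 °C and 56.9 ± 12 CPM at 6 °C (0.09 ± 0.17, adjusted p = 0.771). In Asns the groups overlapped.

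The rises in the list included 8 aminoacyl-tRNA synthetases, which load tRNAs with amino acids. Some synthetase genes outside the list fell. Aars, the alanyl-tRNA synthetase, measured 48.3, 49.9, 54.7 and 49 CPM at 22 °C and 94.9, 78.2, 64.9 and 99.3 CPM at 6 °C without overlap (0.74 ± 0.15, adjusted p = 0.00228). Of the 15 risen genes of this programme 13 had a promoter in the table. The Aars promoter is shown because only Aars and Gars of these held the response element of C/EBP and ATF factors in the window searched. The window is from RefSeq (GRCm38.p6, plus strand, chr8:111033592-111033841). Capitals mark TTGCATCA, the reverse complement of the searched form TGATGNAA, and the match begins 112 bases before the start.
Aars: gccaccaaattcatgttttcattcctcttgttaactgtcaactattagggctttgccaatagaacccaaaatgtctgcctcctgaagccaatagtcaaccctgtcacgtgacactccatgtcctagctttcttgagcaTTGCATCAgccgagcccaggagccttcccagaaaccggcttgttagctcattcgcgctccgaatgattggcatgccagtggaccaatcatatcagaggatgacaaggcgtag
The element was present in 7 of the 28 genes of the programme with a promoter in the table, 5 of which had not risen, against 2.44% of the tested genes with one (3.45% of all promoters). The rise of Gars was lost without replicate 1, 2 or 3 at 22 °C or replicate 3 at 6 °C.

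The calls among genes of the proteasome and of autophagy were mostly modest rises. Over all tested genes 11.6% rose and 10% fell. Of 44 proteasome genes 14 rose and none fell (median 0.19), 7 of them whichever library was left out. The count was 7 without replicate 1 or 2 at 22 °C and 8 without replicate 3 at 22 °C or replicate 1 at 6 °C. Psmd4, a ubiquitin receptor of the proteasome, measured 44.6, 45.5, 42.8 and 49.7 CPM at 22 °C and 65.7, 68.8, 55.2 and 73.5 CPM at 6 °C (0.53 ± 0.11, adjusted p = 0.00194), without overlap. Ddi2, the protease that activates the transcription factor of proteasome genes, rose by 0.70 ± 0.16. In autophagy and the lysosome 5 of 31 rose and 1 fell (median 0.09), a share of rises near that of all tested genes. The 5 rises but not the fall held throughout. Sqstm1, the autophagy receptor p62, measured 95.1, 95.5, 107 and 106 CPM at 22 °C and 219.9, 179, 176 and 286 CPM at 6 °C (1.10 ± 0.16, adjusted p = 0.000218), with replicate 4 highest. Gabarapl1, a ubiquitin-like autophagy protein, rose by 0.90 ± 0.16. In the unfolded protein response of the endoplasmic reticulum 5 of 24 rose and 3 fell (median 0.20), and 2 of each held throughout. Only 3 rises were called without replicate 3 at 22 °C or replicate 2 or 3 at 6 °C. Dnajb9, a cofactor of the chaperone BiP, rose by 1.35 ± 0.20, and Pdia4, a disulfide isomerase, fell by 0.79 ± 0.14.

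Of 28 genes of the NRF2 and haem response, which counters oxidants, 10 rose and 1 fell (median 0.15), and 8 of the rises but not the fall held whichever library was left out. Besides Hmox1, Maff and Sqstm1, which stand in other groups above, Mafk, a partner of NRF2, rose by 1.06 ± 0.14 (adjusted p = 7.8e-05) and Txnrd1, thioredoxin reductase, by 0.62 ± 0.10. Txnrd1 measured 47, 48, 45 and 45.9 CPM at 22 °C and 79.8, 63.8, 74.9 and 68 CPM at 6 °C, and the cold animals all lay above the others. Nqo1, a standard target of NRF2, was at 0.738 ± 0.105 CPM at 22 °C and 0.695 ± 0.375 CPM at 6 °C (-0.06 ± 0.34, adjusted p = 0.937).

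Of 22 glucocorticoid-responsive genes 10 rose and none fell (median 0.77), and 6 held whichever library was left out; 6 were called without replicate 1 at 22 °C. Cdkn1a, the cell-cycle inhibitor p21, measured 67.7, 33.7, 95 and 100.2 CPM at 22 °C and 239, 293, 291 and 203 CPM at 6 °C (1.79 ± 0.32, adjusted p = 0.000865), and the groups did not overlap. Sgk1, a kinase induced by glucocorticoids, stood at 23, 45.2, 42.2 and 61.8 CPM at 22 °C and 94.1, 113, 119.7 and 73.3 CPM at 6 °C (1.26 ± 0.19, adjusted p = 0.000247). Mt2, a metallothionein, measured 21.3, 22.5, 41.8 and 18.8 CPM at 22 °C and 87.6, 107, 39.6 and 64.9 CPM at 6 °C, where replicate 3 at 6 °C lay below replicate 3 at 22 °C (1.51 ± 0.37, adjusted p = 0.00759). Fkbp5, a frequently used reporter of glucocorticoid action, was at 8.3, 2.63, 20.1 and 11.2 CPM at 22 °C and 33.3, 36, 16.6 and 16 CPM at 6 °C (1.25 ± 0.51, adjusted p = 0.0926). Replicates 1 and 2 in the cold stood above all others and replicates 3 and 4 within the range at 22 °C.

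Genes of growth arrest and of feedback on growth factor signalling changed in both directions. In growth arrest 5 of 23 rose and 3 fell (median -0.17), against 11.6% and 10% over all tested genes. All 5 rises and 2 of the falls held whichever library was left out. Gadd45g, a stress sensor, measured 19.9, 9.65, 12.7 and 8.2 CPM at 22 °C and 55.2, 64.9, 30.2 and 54 CPM at 6 °C (2.04 ± 0.25, adjusted p = 5.55e-05), without overlap. The ERK feedback list had 8 rises and 3 falls among 19 (median 0.32), with 6 and 2 held throughout. Spry4, an inhibitor of receptor tyrosine kinase signalling, measured 3.42, 7.28, 6.68 and 3.5 CPM at 22 °C and 19.6, 18.4, 30.6 and 19 CPM at 6 °C (2.09 ± 0.24, adjusted p = 3.12e-05). Every cold animal was above 18 CPM and every other below 8 CPM. Dusp16, a phosphatase of MAP kinases, rose by 1.62 ± 0.20, and Dusp14 fell by 1.78 ± 0.45 at a level near 1 CPM.

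Among genes that carry cytokine and insulin signals inside the cell, Socs2, which restrains growth hormone and STAT5 signalling, measured 3.7, 2.47, 6.34 and 3.16 CPM at 22 °C and 26.2, 61.2, 48.6 and 23 CPM at 6 °C (3.30 ± 0.42, adjusted p = 7.92e-05), and Stat5a, the factor it restrains, 54.5, 48.6, 47.6 and 31.1 CPM at 22 °C and 17, 13.4, 8.28 and 15.1 CPM at 6 °C (-1.76 ± 0.22, adjusted p = 7.4e-05). Neither gene had overlapping groups. The whole list of 27 had 5 rises and 3 falls (median -0.03), against 11.6% and 10% over all tested genes, 4 and 1 of them whichever library was left out, and 1 fall was called without replicate 2 at 22 °C or replicate 1 or 2 at 6 °C. Pik3r1, the regulatory subunit of phosphoinositide 3-kinase, measured 85.2, 149.7, 86.7 and 61.3 CPM at 22 °C and 28.3, 23.2, 22.9 and 18.4 CPM at 6 °C (-2.06 ± 0.24, adjusted p = 3.74e-05). The insulin receptor substrate Irs3 stood at 9.79, 11.9, 10.3 and 6.7 CPM at 22 °C and 2.57, 1.55, 2.63 and 2.33 CPM at 6 °C (-2.10 ± 0.21, adjusted p = 1.83e-05). For both, all cold animals were at less than the lowest other animal. Their list, 22 antilipolytic and nutrient-sensing genes, had 4 rises and 5 falls (median -0.17), 3 and 2 held throughout, and 3 falls were called without replicate 2 of either temperature. Foxo1, a factor restrained by insulin, rose by 1.15 ± 0.17. Among cytokines and adhesion molecules 3 of 17 rose and 1 fell (median -0.03), and the fall did not hold. The 2 rises that held throughout were of Icam1 and Vcam1, adhesion molecules for leukocytes (1.38 ± 0.25 and 0.86 ± 0.18).

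The circadian clock list had calls in both directions. Among 25 genes 7 rose and 6 fell (median 0.09), against 11.6% and 10% over all tested genes. In the list, 5 calls in each direction held whichever library was left out. Of the activators, Arntl, which encodes BMAL1, measured 5.8, 2.41, 4.2 and 4.87 CPM at 22 °C and 11.5, 19.6, 21.6 and 10.6 CPM at 6 °C (1.79 ± 0.32, adjusted p = 0.000957), without overlap. Of the output and repressor genes, Per3 measured 30.6, 35.1, 43.9 and 28.6 CPM at 22 °C and 7.99, 6.81, 6.21 and 5.81 CPM at 6 °C (-2.38 ± 0.19, adjusted p = 1.81e-06). All cold animals were below 8 CPM and all others above 28 CPM. Dbp, an output factor with strong daily rhythm, stood at 22.2, 24.4, 30.3 and 16.8 CPM at 22 °C and 10.1, 8.24, 4.1 and 5.06 CPM at 6 °C (-1.80 ± 0.25, adjusted p = 0.000158), and Bhlhe40, a repressor, at 85.1, 106, 77.5 and 145 CPM at 22 °C and 49.3, 21.3, 20.0 and 23.1 CPM at 6 °C (-1.91 ± 0.28, adjusted p = 0.00023). Neither had overlapping groups. Nfil3, a repressor of the genes that DBP activates, rose by 1.54 ± 0.17 with cold values of 16.3 to 18.3 CPM. Nr1d1, the repressor REV-ERB alpha, was at 114 ± 29.8 CPM at 22 °C and 75.4 ± 24 CPM at 6 °C (-0.60 ± 0.22, adjusted p = 0.0641). No hour of collection is given for any group in the sources used here.

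Per1, a period gene that also responds to cAMP and glucocorticoids, measured 26, 34.6, 41.8 and 18.7 CPM at 22 °C and 81, 64.9, 43.1 and 57.5 CPM at 6 °C (1.01 ± 0.27, adjusted p = 0.0125). Replicate 3 in the cold barely exceeded replicate 3 at 22 °C. Of the 7 risen clock genes 6 had a promoter in the table. The Per1 promoter is shown as 1 of the 2 of these, with Cry1, that hold an E-box in the 250 bases before the start. The E-box CACGTG is the site of BMAL1 and CLOCK and is in capitals (RefSeq, GRCm38.p6, plus strand, chr11:69098699-69098948), beginning 166 bases before the start.
Per1: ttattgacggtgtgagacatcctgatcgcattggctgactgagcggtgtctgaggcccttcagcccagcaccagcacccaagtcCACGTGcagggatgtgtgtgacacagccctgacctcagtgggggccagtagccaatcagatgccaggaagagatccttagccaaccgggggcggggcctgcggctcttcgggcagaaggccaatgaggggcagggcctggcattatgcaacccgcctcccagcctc
The E-box, the same on both strands, occurred in 5 of the 20 clock genes with a promoter in the table, Bhlhe41, Ciart, Cry1, Per1 and Tef, against 9.87% of the tested genes with one (6.02% of all promoters). Of the 5, Cry1 and Per1 rose and Bhlhe41 fell (log2 fold change -0.96 ± 0.24). The rise of Cry1 was lost without replicate 2 or 3 at 22 °C or replicate 1 or 3 at 6 °C.

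Genes of vascular signals were called in both directions, with the apelin receptor and its ligand among the falls. Over all tested genes 11.6% rose and 10% fell. Of 32 angiogenic and endothelial signalling genes 5 rose and 8 fell (median -0.01), and 4 rises and 7 falls held whichever library was left out; 9 rises were called without replicate 4 at 6 °C. Besides Aplnr, its ligand Apln measured 5.63, 2.53, 3.36 and 2.29 CPM at 22 °C and 1.3, 1.28, 0.776 and 0.886 CPM at 6 °C (-1.66 ± 0.42, adjusted p = 0.00895). Receptor and ligand were thus both lower in every cold knockout than in any knockout at 22 °C. Angpt2, which destabilises vessels, stood at 0.919, 1.19, 0.955 and 1.08 CPM at 22 °C and 2.77, 4.49, 4.96 and 1.15 CPM at 6 °C (1.67 ± 0.38, adjusted p = 0.00484). Replicate 4 in the cold did not exceed the 22 °C range. Angpt1, its counterpart, fell by 1.51 ± 0.22 and Tek, their receptor, by 0.50 ± 0.10. Vegfa, a main angiogenic factor of brown fat, was at 251 ± 16.2 CPM at 22 °C and 326 ± 74.9 CPM at 6 °C (0.37 ± 0.15, adjusted p = 0.0796). Metrnl, a secreted factor, rose by 1.47 ± 0.26 from 0.887 ± 0.296 CPM at 22 °C. The list of 25 adipokines and secreted factors had 2 rises and 2 falls (median -0.12), shares near those of all tested genes. Of these calls, 1 in each direction held throughout. As single libraries were left out 1 to 4 rises were called, 4 of them without replicate 4 at 6 °C.

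Of 31 genes of NAD and NADPH metabolism 2 rose and 6 fell (median -0.17), against 11.6% and 10% over all tested genes, with 1 rise and 3 falls held whichever library was left out. Without replicate 2 or 3 at 22 °C or replicate 1 at 6 °C 3 falls were called. Nnmt, which consumes nicotinamide, measured 8.62, 13, 10.5 and 7.49 CPM at 22 °C and 17.3, 61.8, 51.1 and 42 CPM at 6 °C (2.06 ± 0.33, adjusted p = 0.000384), without overlap and lowest in the cold female. Sirt4, a mitochondrial sirtuin, measured 4.88, 4.71, 5.31 and 3.37 CPM at 22 °C and 2.17, 2.51, 1.98 and 2.27 CPM at 6 °C (-1.03 ± 0.18, adjusted p = 0.000835). Each cold animal was below each other animal. Cd38, an NAD-consuming enzyme, fell by 0.80 ± 0.19, and Nampt, the rate-limiting enzyme of NAD salvage, was at 477 ± 76.1 CPM at 22 °C and 504 ± 105 CPM at 6 °C (0.08 ± 0.17, adjusted p = 0.795). Of 31 genes of mRNA deadenylation and decay 1 rose and 1 fell (median 0.02), and 1 to 3 rises and 0 to 3 falls were called as single libraries were left out. The rise was of Lsm1, part of the ring that binds deadenylated mRNA (0.60 ± 0.15, adjusted p = 0.0088).

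Some lists of markers of other cell types had calls and others had none. Over all tested genes 11.6% rose and 10% fell. Skeletal muscle markers gave no call among 16 and fibroblast markers none among 12. Kit, a receptor of mast cells that other cells also carry, measured 6.78, 7.38, 7.91 and 9.16 CPM at 22 °C and 2.57, 1.66, 2.24 and 0.886 CPM at 6 °C (-2.10 ± 0.31, adjusted p = 0.000213), whereas the mast-cell proteases Cpa3 and Mcpt4, at about 1 CPM, were not called (0.38 ± 0.40 and -0.29 ± 0.43). Of 12 macrophage markers 1 rose, Cd163 (0.99 ± 0.22), and 3 were called without replicate 1 or 3 at 6 °C. Of 12 endothelial markers 3 rose and 1, Tek, fell, and the fall alone held whichever library was left out. The rises numbered 0 without replicate 1 at 6 °C. Of 10 pericyte markers 2 fell, none of them throughout, and 0 to 4 did as single libraries were left out (4 without replicate 4 at 22 °C). Of 8 markers of Schwann cells and nerve 1 rose, Pmp22 (1.31 ± 0.19), a myelin protein that fibroblasts also make. Lep was the white adipocyte marker that was called. Summed levels of the endothelial markers were 469 to 499 CPM at 22 °C and 467 to 631 CPM at 6 °C, and those of the macrophage markers 61.4 to 68.1 and 70.2 to 120 CPM. Their part in the changes of Aplnr, Icam1 and other genes of those cells was not tested.

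**Figure D3:**
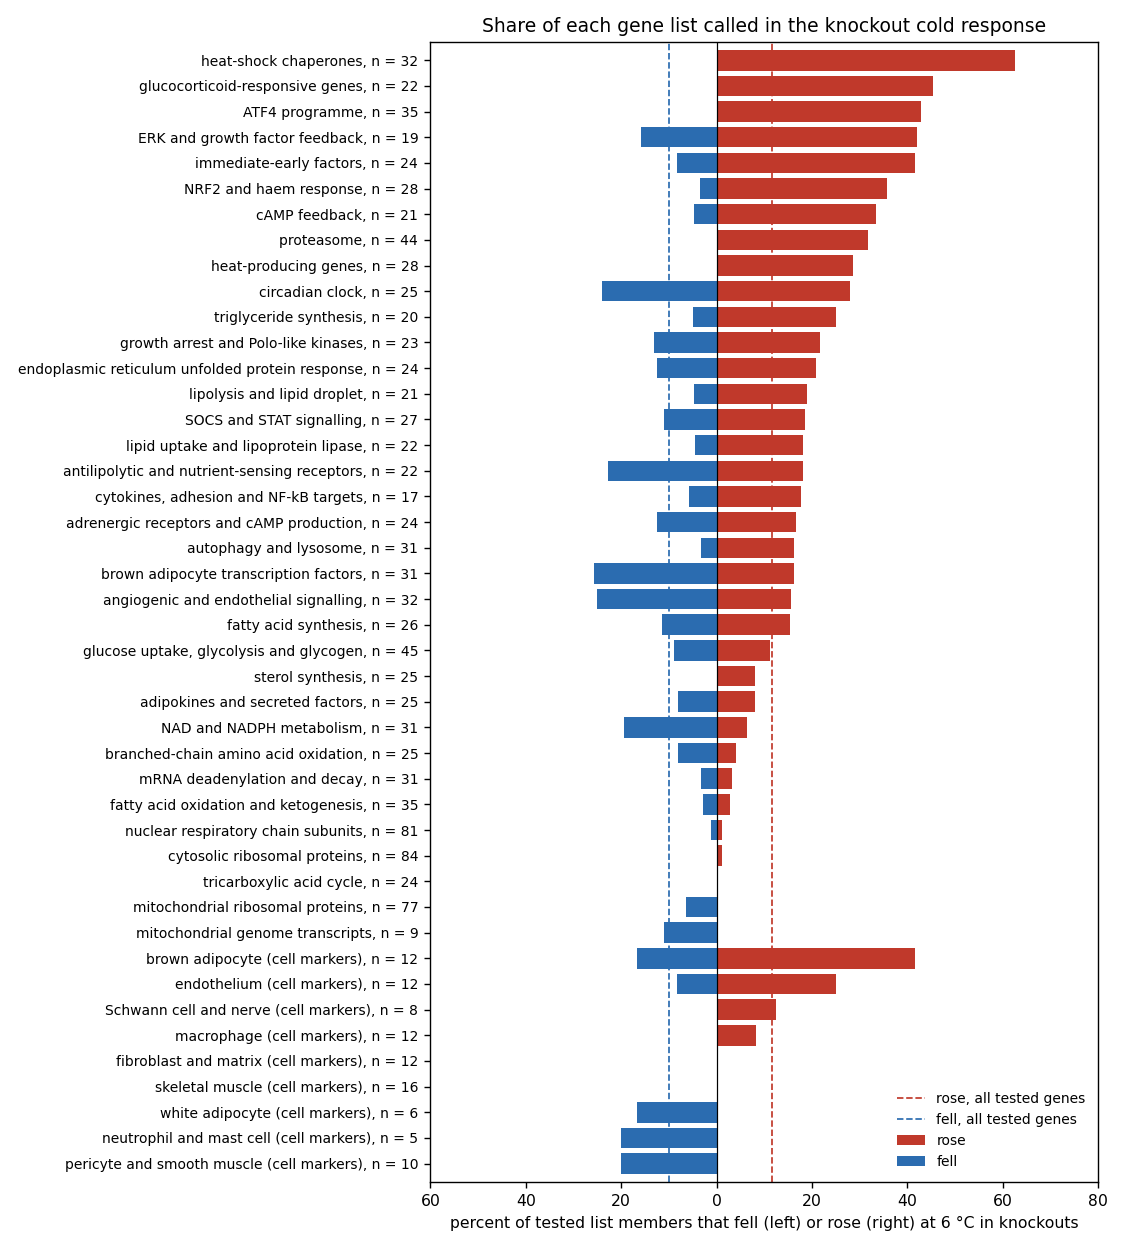
Share of the tested members of each list with at least 5 tested genes that rose (red, to the right) or fell (blue, to the left) in the knockout cold response, in percent; dashed lines mark the shares over all 12486 tested genes, 11.6% and 10%. Heat-shock chaperones stand highest with 20 rises among 32, and the lists of the tricarboxylic acid cycle, fibroblasts and skeletal muscle have no bar.

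Several lists differed among the cold animals themselves. Replicate 3 at 6 °C was the highest of the 4 in 759 of the 1446 risen genes (52.5%). The same library had the larger mitochondrial share and the highest muscle signal, and the part of these in its order was not tested. Among the 20 risen heat-shock genes, replicate 3 was highest for 16 and replicate 4 lowest for 16. Their median over the mean at 22 °C was 1.03, 0.91, 1.29 and 0.48 (log2) in replicates 1 to 4. Among the 15 risen genes of the ATF4 programme the order was the other way round for these 2 animals, with replicate 4 highest for 9 and replicate 3 lowest for 9. The medians there were 0.91, 0.83, 0.69 and 0.81. For the 8 risen heat-producing genes they were 1.07, 1.01, 1.31 and 1.34, so replicate 4 stood low in chaperones and not in heat production.

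**Figure D4:**
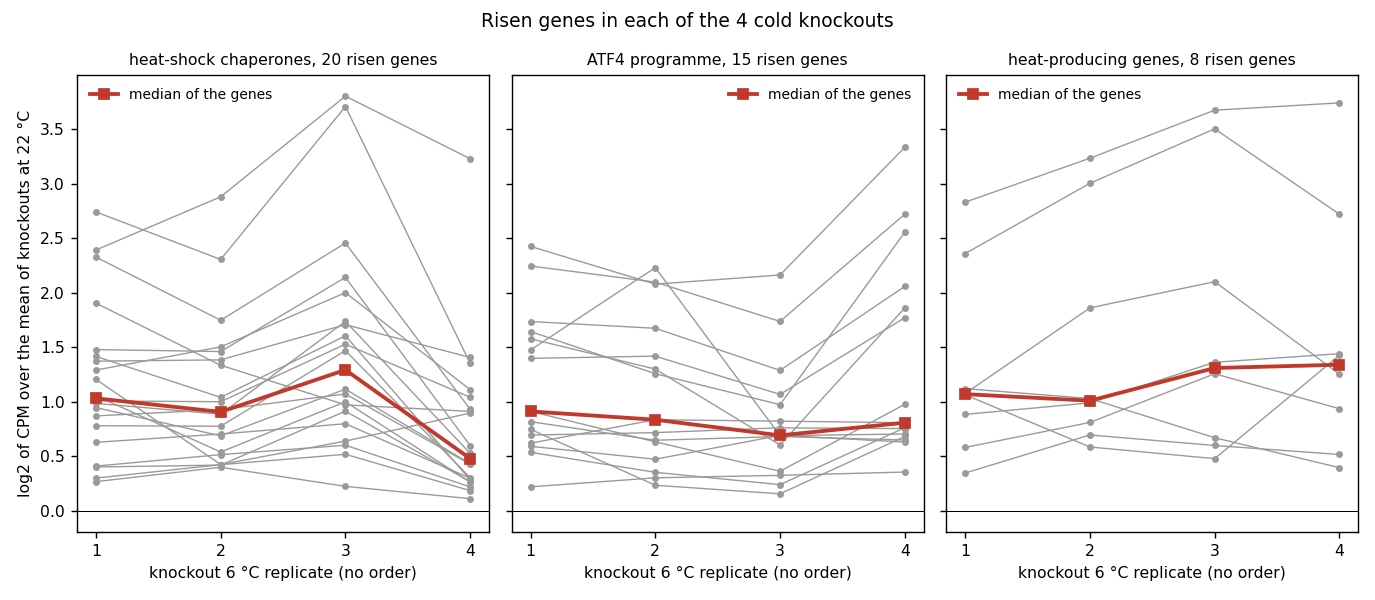
Risen genes of 3 lists in each of the 4 cold knockouts, as the log2 of CPM over the mean of the knockouts at 22 °C; each grey line is 1 gene, the red squares are the medians, and replicate numbers have no order. The chaperone median is 0.48 in replicate 4 and 1.29 in replicate 3, while the ATF4 median is 0.69 in replicate 3 and 0.81 in replicate 4.

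The cold knockouts spread more widely around their mean than the knockouts at 22 °C. Over 7617 genes of at least 5 CPM in both groups, the median coefficient of variation was 12.5% at 22 °C and 16.5% at 6 °C. The same held among the risen genes (11.6% and 15.3%), the fallen genes (12.6% and 16%) and the genes not called (12.7% and 16.7%). These are descriptions of 4 animals each. Lpl with an SD of 288 CPM at 22 °C and 1651 CPM at 6 °C is an example, and Nfil3 with 0.266 and 0.895 CPM shows that single genes stayed tight.

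The wild types of the series allowed the knockout response to be set beside that of intact littermates. In wild types 3450 genes (27.6%) were called, 1786 rises (14.3%) and 1664 falls (13.3%). These rest on 9 animals and the knockout calls on 8, so the 2 counts are not compared. Of the 2697 genes called in knockouts, 2675 had the same sign in wild types, as did 80.7% of all tested genes. There were 579 genes (4.64%) called in knockouts and not in wild types, and none of them had a called difference between the 2 responses. The test of that difference itself called 1 of the 12486 genes, 0.00801%, in edgeR and likewise in DESeq2, and 310 genes (2.48%) had an unadjusted p below 0.05.

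The gene with a called difference was Elf2, an ETS transcription factor. It measured 15.7, 16.9, 16.2 and 13.4 CPM at 22 °C and 4.58, 4.83, 5.17 and 5.55 CPM at 6 °C in knockouts (-1.63 ± 0.11, adjusted p = 5.06e-07). Wild types held 23.1 to 25.2 CPM at 22 °C and 25 to 33.3 CPM at 6 °C, a rise of 0.34 ± 0.10. The difference, knockout minus wild type, was -1.97 ± 0.15 (adjusted p = 2.54e-06), and none of the 4 cold knockouts came near any other group. The difference was called in every alternative that was run and whichever library was left out. At 22 °C the 4 knockouts, with a mean of 15.6 ± 1.5 CPM at 22 °C, also lay below the 4 wild types, with 24.1 ± 0.94 CPM.

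Elf2 lies next to Noct on chromosome 3 (GRCm38). Noct runs on the plus strand from 51224447 to 51251644 and Elf2 on the minus strand from 51252720 to 51340663, so their 3' ends face each other with 1075 bases between the genes. The strand setting of the counting is not given. Within 1 Mb on either side of Noct 8 other genes were tested, and 2 of them were called in the knockout cold response, Elf2 and Rab33b. Rab33b, a small GTPase of the Golgi and autophagosomes, rose by 0.57 ± 0.13 in knockouts and 0.52 ± 0.13 in wild types. The differences between the responses of the 7 genes other than Elf2 lay between -0.32 and 0.30. Mgst2, a glutathione transferase of this interval, measured 0.419 ± 0.117 CPM at 22 °C and 0.326 ± 0.26 CPM at 6 °C in knockouts. In wild types it measured 1.51 ± 0.317 and 1.5 ± 0.128 CPM, and every wild type lay above every knockout.

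The other genes named for a small unadjusted p of the difference did not pass the adjustment. Btc, a growth factor of the EGF family, measured 6.95, 11.5, 10.8 and 12.6 CPM at 22 °C and 3.58, 5.34, 4.4 and 3.68 CPM at 6 °C in knockouts (-1.30 ± 0.24), and its wild-type value was -0.14 ± 0.22. Prdm16, a determinant of brown fat identity, stood at 20.2, 27.7, 16.9 and 18.1 CPM at 22 °C and 23.1, 18.1, 21.1 and 37.1 CPM at 6 °C (0.26 ± 0.21, adjusted p = 0.408), with a wild-type value of -0.87 ± 0.19. Its knockout groups overlapped, and the difference of 1.13 ± 0.28 was not called. Sh3pxd2a, an adaptor of cell protrusions, was at -0.37 ± 0.17 in knockouts and -1.33 ± 0.16 in wild types.

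**Figure D5:**
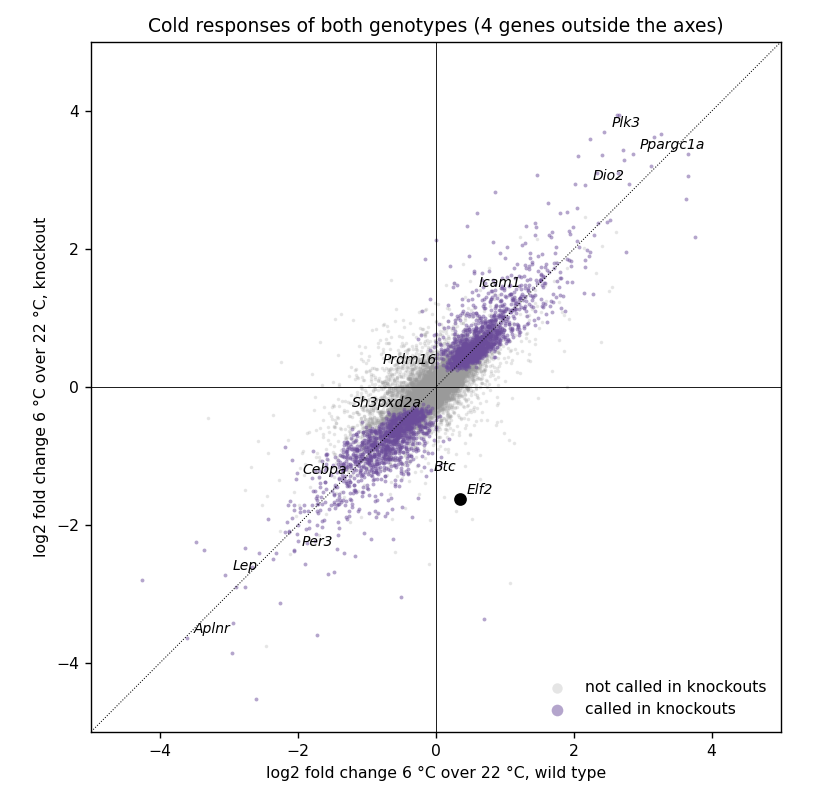
Log2 fold change of 6 °C over 22 °C in knockouts (vertical) against that in wild types (horizontal) for the tested genes; purple points were called in knockouts and the dotted line marks equal change. Elf2 (black point) lies at -1.63 in knockouts and 0.34 in wild types, apart from the diagonal; other genes lie as far from it without a called difference.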

How the data were processed

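Brown fat of 17 mice was profiled by mRNA sequencing, 1 library per animal. Per the submitters' processing notes, STAR, HTSeq and the builds mm10 and GRCm38.p6 were used; versions, gene annotation and the strand setting are not given in the sources used here. The authors deposited raw counts per gene for 21982 genes and a second table of RPKM values, which are those counts scaled to each library's total and to gene length. Groups, sexes and ages came from the labels.

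Counts were tested with edgeR 4.0.16 (R 4.3.3): the quasi-likelihood test with TMM scaling, a filter on low counts and a model of 4 groups plus sex over all 17 libraries, which share 1 estimate of the spread with 12 residual degrees of freedom. P-values were adjusted by Benjamini-Hochberg over 12486 genes, and 0.05 was the threshold. Alternatives included DESeq2 1.42.0, limma 3.58.1 on log2(RPKM + 1) and log2(RPKM + 0.1), other scalings and filters, a fold threshold of 1.5, a replicate block and the omission of each library. The scripts were checked on simulated counts. Depth per library sets the precision of low counts. Positions came from GENCODE M21 and promoters from RefSeq, both GRCm38.

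The labels name separate animals, and p-values measure the spread between them. The members, gene lists and tests were chosen with earlier results of these data known. Named genes were up to 12 with the largest rise and fall and 8 with the largest gain and loss of CPM among called genes of at least 5 CPM without overlap, up to 4 called members per list by size of change, the members of highest level where under 2 were called, Noct, and the genes with the smallest p of the difference. The following genes fall outside the rule and were chosen after their values were seen: Aars, Adrb3, Angpt1, Asns, Atp2a2, Bag3, Bhlhe41, Btg2, Ciart, Cidea, Cox8b, Cry1, Egr1, Fkbp5, Fos, Foxo1, Gars, Hsf1, Hspd1, Hspe1, Jun, Lipe, Med1, Mgst2, Nampt, Nfil3, Nqo1, Nr1d1, Pde3b, Per1, Pnpla2, Pparg, Ppp1r15a, Rab33b, Sgk1, Slc2a4, Tef, Txnrd1, Vegfa and Zic1. Results for a few genes are not reported here.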

Additional observations from a re-analysis of the deposited data

Results flagged for a closer look

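In 23 of 282 groups examined (8.16%), 1 of the 4 knockouts lay apart from the other 3 by the criterion of Dixon's 95% value, where chance gives about 1 in 20 groups. Replicate 4 at 22 °C was that animal for 9 genes. It was highest in Abhd5 (107.7 CPM), Dnajb9 (52.4 CPM), Gars (99.5 CPM), Gk (349.6 CPM), Ppp1r3b (396 CPM) and Ucp1 (6094 CPM). The same animal was lowest in Adcy9 (12.3 CPM), Slc2a1 (1.71 CPM) and Zic1 (5.20 CPM).

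Replicate 3 at 22 °C stood above its group in Foxo1 (107.9 CPM), Hmox1 (19.2 CPM), Mfsd2a (19.6 CPM) and Mt2 (41.8 CPM). Replicate 1 at 22 °C, the female, stood above it in the immediate-early genes Fos (13.1 CPM), Egr1 (105 CPM) and Btg2 (24.9 CPM) and in the summed keratins (8.21 CPM). Replicate 2 at 22 °C was lowest in the macrophage marker Cd163 (3.37 CPM).

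Among the cold knockouts, replicate 3 lay apart as the highest in Bag3 (98.4 CPM) and Spry4 (30.6 CPM). Replicate 1 was highest in Bhlhe40 (49.3 CPM) and lowest in Lrrc52 (4.64 CPM). Replicate 2 held the only keratin counts of the cold knockouts (0.0387 CPM).

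The cold response of Elf2 differed between knockouts and wild types by -1.97 on the log2 scale (edgeR quasi-likelihood test of the difference, adjusted p = 2.54e-06), with all 4 cold knockouts below every other animal of the series.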

How the results depend on the processing

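The number of genes called in the knockout cold response was 2697 and ranged from 1961 to 2834 with 1 library left out. It was 340 when the test asked for more than a 1.5-fold change, 1589 with the knockout libraries alone and 740 with the male knockouts alone; the smaller fits rest on fewer animals. The share of rises among the calls was 53.6%, against 41.3% on log2(RPKM + 1) and 42.5% on log2(RPKM + 0.1). In edgeR it was 43.9% with scaling to total counts in place of TMM and 56.2% with the size factors of DESeq2. Same-numbered knockouts showed no common deviation (correlations of 0.185, -0.0668, -0.38 and -0.286). So few values, taken around each group's own mean, cannot exclude that the replicate numbers pair the animals. With the number as a replicate block 2220 genes were called with a sex term and 2304 without one. The difference between the cold responses had 1 call, Elf2, in every setting run on both genotypes and with each library left out. Of the 110 called genes named in the text, 106 kept their call whichever single library was left out, and 59 kept it in every setting. Over all 2697 called genes the share kept with single libraries left out was 57.2%. The named genes were picked from the calls, in part by size of change, and do not stand for all of them. Some genes within the naming rule that lost their call are not named. With 1 library left out, no value for a named gene was reversed. Counting noise limits genes near 1 CPM.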

Other observations

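None of the 4 tested genes of the list of cold-inducible RNA-binding proteins was called in cold knockout brown fat. Without replicate 3 at 6 °C 1 was called. Over all tested genes 21.6% were called, so 4 genes without a call are too few to describe the family. Rbm3, an RNA-binding protein induced by lowered temperature, measured 14, 14.3, 11.8 and 12.5 CPM at 22 °C and 15.8, 21.3, 13.1 and 17.3 CPM at 6 °C (log2 change 0.36 ± 0.14, adjusted p = 0.0878 in edgeR's test). Cirbp, its relative, measured 6.03, 6.22, 5.04 and 4.21 CPM at 22 °C and 4.71, 4.56, 3.54 and 4.63 CPM at 6 °C (-0.30 ± 0.29, adjusted p = 0.511). Both genes had overlapping groups and were chosen after their values were seen.

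Of 25 genes of branched-chain amino acid oxidation and transport, 1 rose and 2 fell (median -0.12). The rise was of Slc3a2, the heavy chain of amino acid exchangers, which also belongs to the ATF4 programme. Of 12 brown adipocyte markers 5 rose and 2, Ebf2 and Zic1, fell, so that markers of one cell type were called in both directions.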
